A study of Mus musculus with 12 samples.

Results

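Colonic epithelial organoids (colonoids) carrying an *Hmox1* knockout label were compared with control colonoids after both had been exposed to hemin, the oxidised form of heme, and the comparison covered 6 of the 12 libraries and 11650 of the 54532 genes in the deposited table. A gene was included when its FPKM (fragments scaled by gene length and by the number of fragments in the library) reached at least 1 in at least 3 of those 6 libraries. The controls were floxed at both *Hmox1* alleles (Hmox1 fl/fl), and their labels name no Cre. The other colonoids are labelled Hmox1 KO with Vil1 Cre, and their libraries are called KO-labelled here. Of these, the hemin library titled replicate 3 lists its genotype as fl/fl with Vil1 Cre in place of KO with Vil1 Cre, and without it 718 genes were called by the rule given below, against 727 with it. All 6 cultures received 200 µM hemin for 24 h, and 3 libraries per genotype with vehicle in place of hemin make up the rest of the series. The cells came from colons of C57BL/6-background mice aged 8 to 12 weeks, and Cre stands under the promoter of Vil1, a gene active throughout the intestinal epithelium. They were grown in medium conditioned by L-WRN cells, which secrete Wnt3a, R-spondin and noggin. The sources used here do not say from how many mice or cultures the 3 libraries of a group came, so the p-values below measure only the spread between these libraries, which may be technical, and a difference between donor lines cannot be told apart from one between genotypes.

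Heme oxygenase-1, the product of *Hmox1*, opens the heme ring and releases biliverdin, carbon monoxide and ferrous iron, and its transcription is induced by heme itself through release of the repressor BACH1. The colonic epithelium renews from crypt stem cells, which give rise to absorptive colonocytes that take up salt and water, goblet cells that secrete mucus, and enteroendocrine cells that secrete peptide hormones. Free heme and iron act on this epithelium through oxidative stress, against which the transcription factor NRF2 induces detoxifying enzymes, while metal ions induce the zinc-binding metallothioneins through the factor MTF1.

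*Hmox1* (ENSMUSG00000005413, chromosome 8, 75093621 to 75100589, mm10) was measured first, as a check of the labels. With hemin, the controls held 503, 483 and 382 FPKM of it and the KO-labelled libraries 1279, 1392 and 1271, a difference of 1.53 ± 0.13 (mean log2(FPKM + 1), KO-labelled libraries minus control, ± SE) with an adjusted p of 3.4e-04 by limma. The groups did not overlap, and the higher level lay on the side labelled KO. With vehicle, the FPKM was 7.62, 6.85 and 7.90 in the controls and 3.14, 2.11 and 2.31 in the KO-labelled libraries, a difference of −1.27 (adjusted p = 1.6e-04). The transcript level thus lay on the side that the knockout label gives with vehicle and on the opposite side under hemin, and every direction given below is between KO-labelled libraries and control libraries. Which exons the loxP sites flank is not given in the sources used here, and the deposited values are for the gene as a whole.

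The hemin libraries held 11648801 to 11935604 fragments on genes in the controls and 15213738 to 25101868 in the KO-labelled libraries, so depth differed with the groups, and its part in the results was not tested. No 2 libraries of a group agreed within sampling noise (chi-square per degree of freedom 3.73 to 47.9 over the hemin pairs). A single short gene, *Gm23935*, held 29.0% of the FPKM sum of control replicate 1 and 21.0% of that of replicate 2 labelled KO. Control replicate 3 stood apart from the other controls in some abundant genes, for example *Jund* (a subunit of the AP-1 transcription factor) with an FPKM of 138, 155 and 37.9 in the 3 controls. Of 8 epithelial markers, all passed the filter, with a summed FPKM of 8222 to 10371 in the controls and 7703 to 8987 in the KO-labelled libraries. *Cdx2*, an intestinal transcription factor, was the only one of these 8 that was called, and was lower (−1.27). Of 10 immune, 10 fibroblast and muscle, 7 endothelial, 7 neuronal and glial, and 6 red blood cell markers, only *Cd68* and *Tubb3* passed the filter, and *Sox10*, *Dcn*, *Col3a1*, *Kdr*, *Itgax* and *Hbb-bs* had no fragment in any of the 6 libraries. *Tubb3*, a tubulin of neurons that is also expressed elsewhere, had an FPKM of 2.49, 3.49 and 2.80 in the controls and 0.186, 0.364 and 0.709 in the KO-labelled libraries. In bulk RNA, fewer cells of a type and less RNA per cell cannot be told apart.

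A gene is called here when its adjusted p was under 0.05 and its difference was above 1 on the log2(FPKM + 1) scale in either direction. With hemin, 727 of 11650 tested genes were called (6.24%), 379 higher (3.25%) and 348 lower (2.99%) in the KO-labelled libraries. The groups did not overlap in any of the 727, while 41.4% of all tested genes did not overlap. The adjusted p alone was under 0.05 for 2612 genes (22.4%), so most genes that passed the test differed by less than the size rule. The median difference over all tested genes was 0.04. Differences above 4 were found in 19 genes that were higher and 14 that were lower. These shares of 3.25% and 2.99% are the background for every count of called list members below. At the edge of the rule, *Prr15* (1.003) lay just inside, and *Adam15* (0.997) and *Lhfpl2* (−0.9997) just outside.

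**Figure D1:**
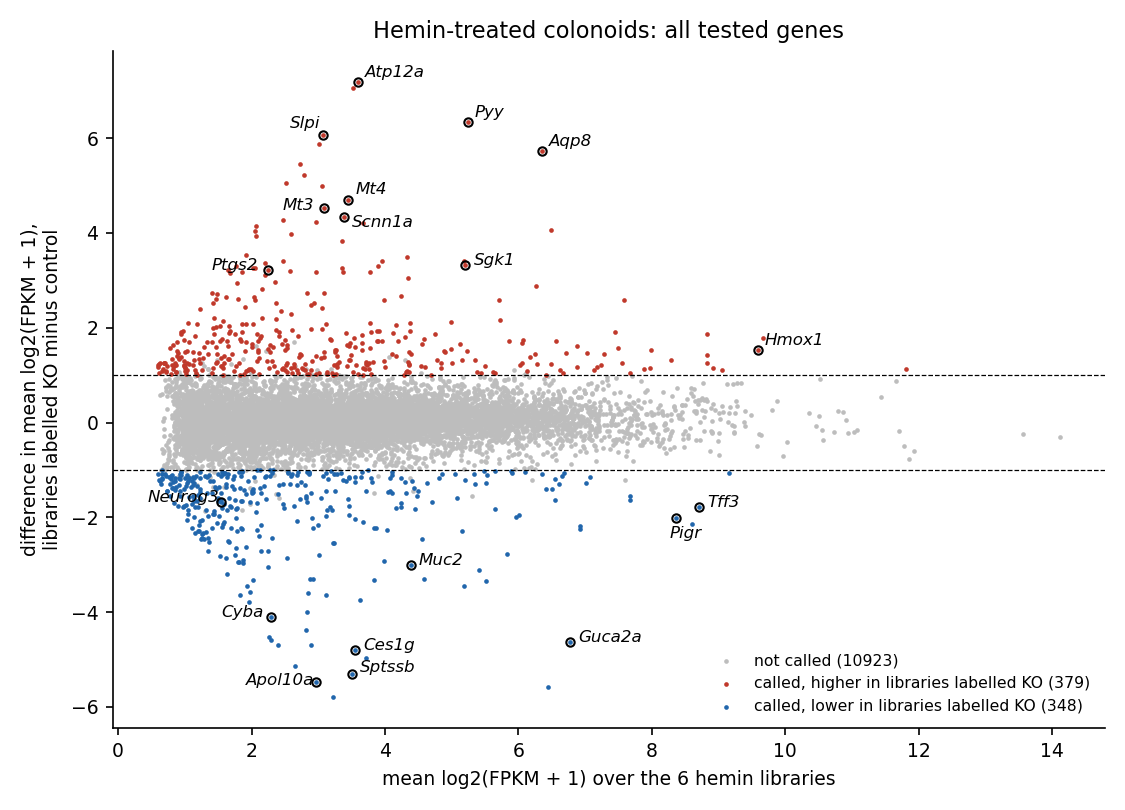
Each point is 1 of 11650 tested genes, with its mean log2(FPKM + 1) over the 6 hemin libraries on the horizontal axis and the difference between the KO-labelled libraries and the controls on the vertical axis. The 379 red and 348 blue points are called genes, the dashed lines mark a difference of 1, and *Hmox1* lies among the genes that were higher.

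Of the 10 largest increases outside Hox genes and unnamed gene models, 6 are given here gene by gene. *Atp12a*, the catalytic subunit of the colonic proton-potassium pump, had no fragment in any control library and an FPKM of 156, 130.1 and 151 in the KO-labelled libraries, at least 2269.9-fold higher against a floor of 3 fragments per library. *Mptx1*, a mucosal pentraxin of the colon, likewise had none in the controls and 47.4, 40.7 and 41.3 in the KO-labelled libraries, at least 134-fold higher against the same floor. These genes were absent from every control library at this depth and present in every library labelled KO. *Aqp8*, a water channel of surface colonocytes, had an FPKM of 11.0, 11.4 and 8.50 in the controls and 778, 421 and 642 in the KO-labelled libraries (5.73 ± 0.23, adjusted p = 1.4e-05). *Slpi*, a secreted inhibitor of leukocyte proteases, was at 0, 0.0717 and 0 in the controls and 72.2, 61.4 and 70.2 in the KO-labelled libraries (6.07 ± 0.09). The spread within either group was small against these gaps. *Thbs4*, a matrix glycoprotein, rose from 0.187, 0.0514 and 0.130 in the controls to 41.8, 38.7 and 42.7 (5.23 ± 0.09). For *Fhl1*, a LIM domain protein, the values were 0.496, 0.182 and 0.784 in the controls and 50.4, 43.0 and 44.4 in the KO-labelled libraries (5.00 ± 0.16). The other 4 were *Pyy* and *Ppy*, *Mt4* and *Mt3*, which are given below with their groups. *Slpi* differed by 4.34 with vehicle as well. The difference with hemin minus that with vehicle was 1.33 for *Atp12a*, 2.48 for *Aqp8*, 1.48 for *Fhl1* and −1.03 for *Thbs4*, so these genes also differed without hemin.

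The largest decreases are given in the same way. *Apol10a*, an apolipoprotein L family member, had an FPKM of 57.5, 43.5 and 53.03 in the controls and 0.252, 0.0701 and 0.184 in the KO-labelled libraries (−5.48 ± 0.13, adjusted p = 1.7e-06). *Sptssb*, a small subunit of serine palmitoyltransferase, the first enzyme of sphingolipid synthesis, fell from 66.2, 64.3 and 81.6 in the controls to 0.799, 0.861 and 0.763 in the KO-labelled libraries (−5.30 ± 0.11). *Fabp2*, the intestinal fatty acid binding protein, fell from 33.3, 25.1 and 35.9 in the controls to 0.360, 0.925 and 0.433 in the KO-labelled libraries (−4.37 ± 0.18). Groups that did not overlap, as in 41.4% of all tested genes, were part of the rule that chose these increases and decreases. *Ociad2*, a mitochondrial membrane protein, was at 37.3, 36.3 and 36.3 in the controls and 0.561, 0.250 and 0.615 in the other group (−4.68 ± 0.12). *Cyba*, the membrane subunit shared by NADPH oxidases, went from 22.0, 21.7 and 15.2 in the controls to 0.334, 0.164 and 0.0671 in the KO-labelled libraries (−4.11 ± 0.17). *Osr2*, a zinc finger transcription factor, had an FPKM of 27.8, 26.7 and 16.7 in the controls and no fragment in any library labelled KO, at least 473-fold lower. *Rps4l*, a close copy of the ribosomal protein gene Rps4x whose fragments could have been split between the copies, was at 18.7, 21.6 and 25.8 in the controls and also had none in the KO-labelled libraries, at least 114-fold lower. *Guca2a* and *Ces1g*, also among the 10 largest decreases, are given with their groups.

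**Figure D2:**
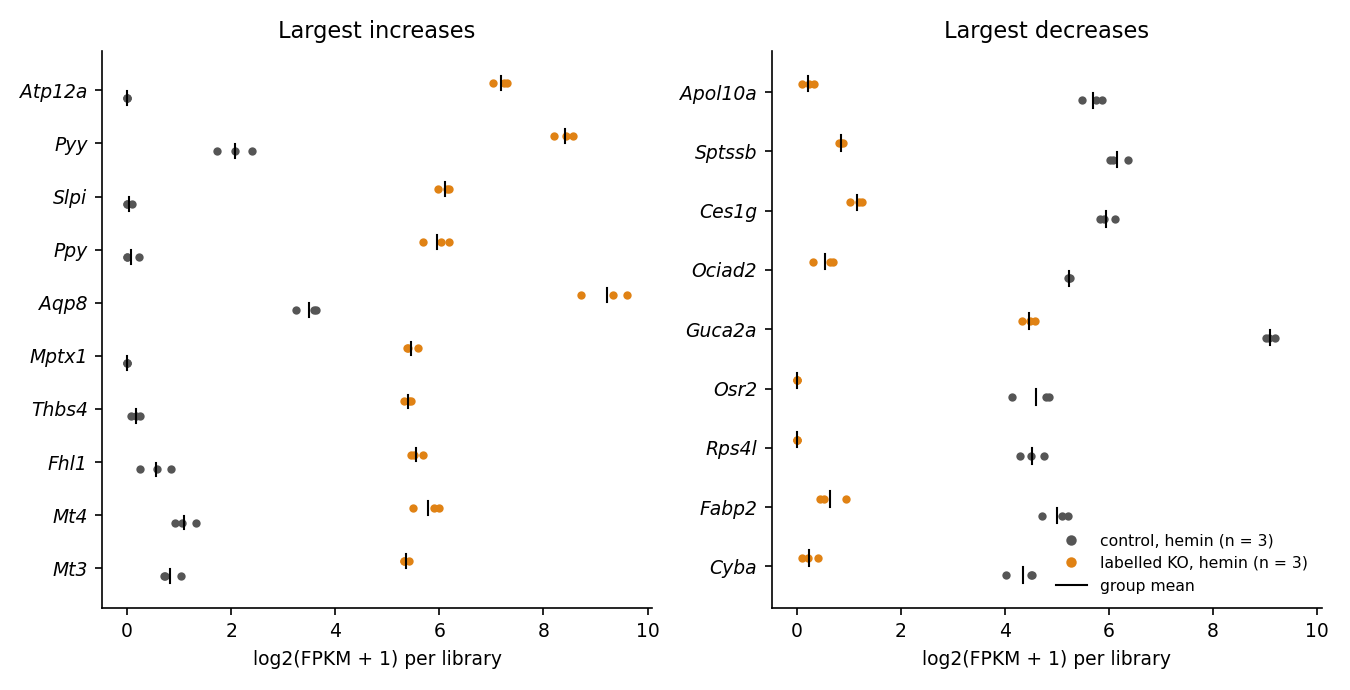
Points are single hemin libraries (3 control in grey, 3 labelled KO in orange) and ticks are group means, on a log2(FPKM + 1) axis, for the 10 largest increases and 9 of the largest decreases outside Hox genes and unnamed gene models. The 3 points of one group lie clear of the 3 of the other because the genes were chosen so, and *Atp12a*, *Mptx1*, *Osr2* and *Rps4l* have 1 group at 0.

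Of 15 tested goblet cell genes, from a list of 18, 7 fell in the KO-labelled libraries and none was called higher, beside 2.99% of all tested genes called lower, and the list median was −0.96. *Spink4*, a goblet cell product that the list does not hold, was higher, at 10.7, 8.33 and 12.02 in the controls and 121, 126 and 107 in the KO-labelled libraries (3.40 ± 0.14). *Muc2*, the gel-forming mucin of colonic mucus, had an FPKM of 57.3, 57.3 and 60.8 in the controls and 6.75, 5.54 and 6.92 in the KO-labelled libraries, a fall of 9.13-fold (−3.01 ± 0.10, adjusted p = 5.7e-06). *Tff3*, the trefoil peptide secreted with the mucin, was at 881, 914 and 577 in the controls and 247, 196 and 229.6 in the KO-labelled libraries (−1.79 ± 0.20, adjusted p = 0.0010), with control replicate 3 the lowest of the controls. *Clca3b*, of the calcium-activated chloride channel regulator family, fell from 38.2, 47.3 and 47.6 in the controls to 3.66, 3.45 and 3.42 in the KO-labelled libraries (−3.32 ± 0.11). *Fcgbp*, a protein that crosslinks the mucus gel, fell from 84.4, 85.9 and 65.3 in the controls to 16.02, 13.6 and 15.8 in the KO-labelled libraries (−2.29 ± 0.13). *Reg4*, *Capn9* and *Fer1l6* were the other called members, with differences of −1.24, −1.58 and −1.64. The other 8 were not called. *Zg16*, a lectin of the mucus, had an FPKM of 235, 227 and 185 in the controls and 198, 178 and 180.5 in the KO-labelled libraries (−0.21, adjusted p = 0.25). *Atoh1*, the transcription factor that commits cells to the secretory lineage, was at 3.97, 4.39 and 3.23 in the controls and 4.32, 2.91 and 3.75 in the KO-labelled libraries, with overlapping groups. *Agr2*, a disulfide isomerase needed for mucin folding, passed the test but not the size rule (−0.96). With vehicle the same list had a median of 0.24 and no member that was called lower, 3 were called higher, and the interaction term was called in the negative direction for 12 of the 15, beside 1.74% of all tested genes.

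Of 13 tested genes of enteroendocrine hormones and granules, from a list of 19, 9 were called higher in the KO-labelled libraries with hemin, beside 3.25% of all tested genes, and 1 lower, and the median was 1.22. With vehicle, 9 were called higher, beside 2.58% of all tested genes, and none lower, with a median of 1.43. *Pyy*, peptide YY of colonic L cells, had an FPKM of 4.31, 3.22 and 2.31 in the controls and 379, 295 and 347 in the KO-labelled libraries (6.34 ± 0.19, adjusted p = 3.7e-06). *Ppy*, pancreatic polypeptide, was at 0, 0.169 and 0 in the controls and 71.4, 50.2 and 64.1 in the KO-labelled libraries (5.89 ± 0.15). *Insl5*, a hormone of distal colonic L cells, rose from 1.82, 2.80 and 2.84 in the controls to 31.9, 30.5 and 27.6 in the KO-labelled libraries (3.17 ± 0.14). Granule proteins moved the same way, with *Chga* (chromogranin A) at 8.397, 6.69 and 5.19 in the controls and 28.2, 25.6 and 31.4 in the KO-labelled libraries (1.94 ± 0.16) and *Chgb* (chromogranin B) at 2.11. *Gcg*, which encodes GLP-1 and glucagon, had an FPKM of 3.40, 3.40 and 5.39 in the controls and 2.42, 2.79 and 3.17 in the KO-labelled libraries and was not called (−0.40, adjusted p = 0.15), against 1.26 with vehicle. *Sst*, somatostatin, was the called decrease, from 1.95, 2.58 and 2.85 in the controls to 0.674, 0.0589 and 0.483 in the KO-labelled libraries (−1.32 ± 0.20). The call of *Sct*, secretin (1.09), was lost with the replicate number as a block (adjusted p = 0.056), with a pseudocount of 0.1 (adjusted p = 0.078), without control replicate 2 (adjusted p = 0.054), without control replicate 3 (difference 0.85) and without any 1 of the KO-labelled libraries (adjusted p = 0.054 to 0.088).

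Of 14 enteroendocrine transcription factors, 3 passed the filter. *Neurog3*, the factor that commits cells to the enteroendocrine lineage, had an FPKM of 4.56, 4.09 and 3.89 in the controls and 0.747, 0.381 and 0.791 in the KO-labelled libraries, so it was lower with hemin (−1.67 ± 0.13, adjusted p = 2.8e-04). With vehicle it lay the other way, at 2.90, 2.27 and 2.78 in the controls and 20.2, 21.0 and 20.8 in the KO-labelled libraries (2.57). The groups did not overlap under either treatment. *Insm1*, a zinc finger factor that acts after Neurog3, was at 1.53, 1.5003 and 0.469 in the controls and 2.22, 2.34 and 2.50 in the KO-labelled libraries with hemin (0.67, adjusted p = 0.074), against 2.46 with vehicle. None of 16 tuft cell genes passed the filter, and *Dclk1*, a tuft cell kinase, had no fragment in any hemin library.

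Among 31 genes of colonocyte ion and water transport, 26 were tested. With vehicle, 8 were called higher and 3 lower, beside 2.58% and 2.87% of all tested genes, with a list median of 0.25. With hemin, 8 were called higher and 5 lower, beside 3.25% and 2.99% of all tested genes, and the list median was −0.18. *Scnn1a*, the alpha subunit of the epithelial sodium channel, had an FPKM of 1.53, 1.39 and 1.08 in the controls and 52.2, 39.6 and 45.9 in the KO-labelled libraries (4.33 ± 0.13, adjusted p = 3.7e-06), while *Scnn1b*, its beta subunit, stayed under the filter at 0.932, 0.867 and 0.975 in the controls and 1.03, 0.710 and 0.900 in the KO-labelled libraries. *Sgk1*, the kinase that stabilises this channel at the membrane, rose 10.8-fold, from 10.6, 10.3 and 11.2 in the controls to 118, 115 and 113 in the KO-labelled libraries (3.32 ± 0.07). The carbonic anhydrases, which supply bicarbonate and protons, split. *Car2* was higher, at 320.5, 325 and 330.3 in the controls and 735, 714 and 713 in the KO-labelled libraries (1.15 ± 0.08). *Car12* was lower, at 11.3, 11.5 and 12.2 in the controls and 0.101, 0.246 and 0.128 in the KO-labelled libraries (−3.45 ± 0.09). *Car1*, the most abundant gene of the list, was at 4419.5, 3983 and 6351 in the controls and 3073, 2671 and 2803 in the KO-labelled libraries, and was not called (−0.76, adjusted p = 0.031). *Guca2a*, guanylin, the peptide that activates the intestinal guanylate cyclase, fell 25.9-fold, from 519, 539 and 582 in the controls to 22.9, 19.0 and 21.5 in the KO-labelled libraries (−4.63 ± 0.10, adjusted p = 1.3e-06), and *Guca2b*, uroguanylin, from 15.7, 11.7 and 20.1 in the controls to 2.31, 2.78 and 2.48 in the KO-labelled libraries (−2.22 ± 0.18). *Cftr*, the apical chloride channel, was at 11.3, 11.8 and 17.6 in the controls and 4.08, 4.51 and 4.10 in the KO-labelled libraries (−1.45 ± 0.17). *Slc12a2*, the basolateral sodium, potassium and chloride cotransporter, lay near the size rule (−1.03) and was no longer called without control replicate 3 (−0.91) or without replicate 1 labelled KO (−0.98). *Best2*, an anion channel of goblet cells, lay the other way from the goblet list, with no fragment in the hemin controls and 1.06, 1.51 and 1.35 in the KO-labelled libraries, at least 11.3-fold higher.

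The metallothioneins *Mt1*, *Mt3* and *Mt4* rose in the hemin KO-labelled libraries. Of 13 metallothionein and zinc transporter genes, 11 were tested, 3 were called higher and 1 lower, with a median of −0.03, so the increases were in the metallothioneins and not in the list as a whole. The RefSeq windows of the 250 bases before the gene start (GRCm38.p6, the same assembly as mm10) are shown for the 3 that were called because these genes lie close together on chromosome 8 and rose together. Capitals mark matches to TGCNCNC on both strands, a loose form of the core of the metal response element that MTF1 binds. The search takes any letter where the core takes A or G, so a match need not be the core. No matches overlap, although in *Mt4* a pair of matches abut. The window of *Mt1* (chr8:94178839-94179088, plus strand) held 1 match, that of *Mt3* (chr8:94152357-94152606, plus strand) 1 and that of *Mt4* (chr8:94136954-94137203, plus strand) 4.
Mt1: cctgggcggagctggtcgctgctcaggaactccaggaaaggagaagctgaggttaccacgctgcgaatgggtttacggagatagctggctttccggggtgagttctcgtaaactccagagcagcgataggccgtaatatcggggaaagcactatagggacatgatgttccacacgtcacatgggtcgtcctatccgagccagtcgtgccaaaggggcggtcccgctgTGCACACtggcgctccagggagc
Mt3: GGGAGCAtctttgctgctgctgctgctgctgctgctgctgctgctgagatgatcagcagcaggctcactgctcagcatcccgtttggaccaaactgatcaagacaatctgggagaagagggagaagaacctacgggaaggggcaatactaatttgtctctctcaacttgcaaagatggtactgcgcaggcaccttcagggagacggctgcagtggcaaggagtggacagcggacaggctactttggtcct
Mt4: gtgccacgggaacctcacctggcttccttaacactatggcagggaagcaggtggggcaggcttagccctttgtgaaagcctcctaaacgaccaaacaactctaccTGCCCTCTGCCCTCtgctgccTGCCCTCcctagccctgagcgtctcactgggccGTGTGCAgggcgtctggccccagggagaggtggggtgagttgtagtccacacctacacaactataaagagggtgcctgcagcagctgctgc
The element is short, and 44.4% of 32851 RefSeq windows of this length hold at least 1 match, while 4.65% hold 3 or more, so a match is a description and not a binding site.

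*Mt3*, known mainly from brain, had an FPKM of 0.658, 0.635 and 1.04 in the control libraries with hemin and 39.2, 41.7 and 38.8 in the KO-labelled libraries (4.53 ± 0.11, adjusted p = 2.3e-06). With vehicle it was below 1 in all 6 libraries, at 0.171, 0.110 and 0.0683 in the controls and 0.230, 0.163 and 0.501 in the KO-labelled libraries. Only the hemin KO-labelled libraries carried it at a level above 2. *Mt4*, known from stratified epithelium, was at 0.881, 1.49 and 1.08 in the controls and 62.6, 43.8 and 58.3 in the KO-labelled libraries with hemin (4.70 ± 0.17), and at 0.152, 0.294 and 0 in the controls and 5.07, 5.52 and 4.18 in the KO-labelled libraries with vehicle. *Mt1*, the widely expressed member, was at 87.0, 86.8 and 109 in the controls and 302, 221 and 255 in the KO-labelled libraries (1.45 ± 0.15, adjusted p = 8.1e-04), and its difference with vehicle was 0.60. *Mt2*, its close neighbour on the chromosome, was under the filter at 0, 0.575 and 0 in the controls and 1.18, 0 and 1.42 in the KO-labelled libraries. The called decrease was *Slc30a10*, a manganese and zinc exporter, at 22.8, 16.5 and 23.5 in the controls and 5.59, 3.65 and 4.79 in the KO-labelled libraries (−1.95 ± 0.18).

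**Figure D3:**
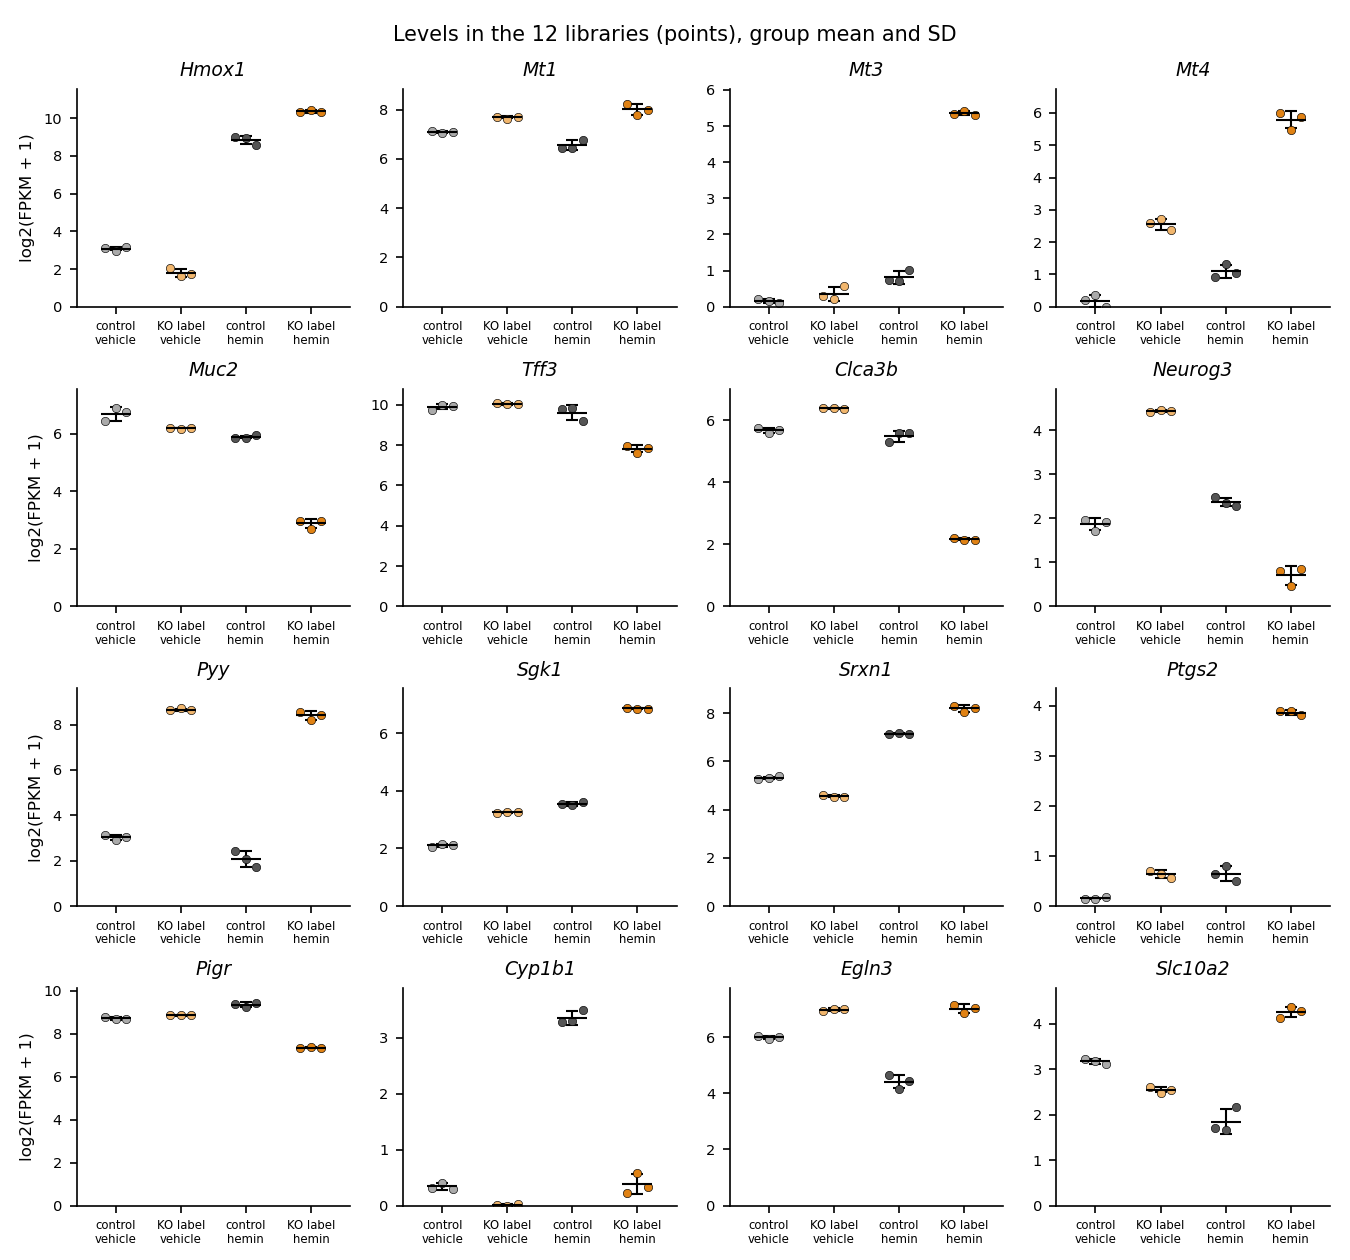
Points are the 12 libraries, and the dash with whiskers is the mean and SD of each group of 3, on a log2(FPKM + 1) axis starting at 0, for 16 genes described in the text. The groups run from left to right as control with vehicle, KO label with vehicle, control with hemin and KO label with hemin. *Mt3* and *Ptgs2* stand high in hemin KO-labelled libraries alone, *Muc2*, *Tff3* and *Clca3b* stand low there alone, and *Neurog3* is high with vehicle and low with hemin in the KO-labelled libraries.

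Several detoxifying enzymes and pumps from a list of NRF2 targets were higher in the KO-labelled libraries than in the controls under hemin. Of 25 listed genes, 24 were tested, 6 were called higher and 1 lower, beside 3.25% and 2.99% of all tested genes (median 0.41, against −0.42 with vehicle, where 6 were called lower and none higher), and the interaction was called positive in 13, beside 2.43% of all tested genes. The list leaves out glutathione synthesis but holds *Gsr*, glutathione reductase, at 88.9, 94.7 and 92.0 in the controls and 154, 156 and 151 in the KO-labelled libraries, under the size rule (0.74). *Hmox1* is 1 of the 6. *Srxn1*, sulfiredoxin, which reactivates oxidised peroxiredoxins, had an FPKM of 142, 142 and 141 in the controls and 318, 264 and 298 in the KO-labelled libraries (1.04 ± 0.09, adjusted p = 4.8e-04); without replicate 1 labelled KO its difference was 0.98, under the size rule. *Cbr3*, a carbonyl reductase, was at 99.7, 112 and 84.9 in the controls and 262, 189.8 and 242 in the KO-labelled libraries (1.21 ± 0.16). *Abcc2* and *Abcc4*, export pumps for organic anions and conjugates, differed by 1.69 ± 0.11 and 1.07 ± 0.08, and *Ephx1*, microsomal epoxide hydrolase, by 1.31 ± 0.11. *Nqo1*, the quinone reductase often used as a readout of NRF2, was at 266, 265 and 327 in the controls and 352, 393 and 347 in the KO-labelled libraries and was not called (0.35, adjusted p = 0.076), and *Nfe2l2*, which encodes NRF2, was at 92.2, 88.0 and 123 in the controls and 51.8, 54.6 and 48.2 in the KO-labelled libraries (−0.94). *Me1*, the cytosolic malic enzyme, was lower, at 29.5, 29.7 and 41.3 in the controls and 9.06, 10.4 and 9.35 in the KO-labelled libraries (−1.69 ± 0.14). Of 10 tested genes of heme breakdown and transport, *Hmox1* and *Slc46a1*, the proton-coupled folate transporter that also carries heme, were called, both higher. *Slc46a1* (1.06) fell under the size rule without control replicate 3 (0.96) or without replicate 1 labelled KO (0.93).

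Of 25 genes of the integrated stress response, 4 were called, all lower, beside 2.99% of all tested genes, with a median of −0.27. With vehicle the median was −0.55 and 5 were called lower, and the interaction was called positive in 5, beside 2.43% of all tested genes, and negative in 2, beside 1.74%. The 4 were *Phgdh*, the first enzyme of serine synthesis (−1.48 ± 0.12), *Stc2*, a secreted glycoprotein (−1.49 ± 0.10), *Nupr1*, a stress-induced nuclear protein (−1.13 ± 0.16, but adjusted p = 0.059 without both libraries rich in *Gm23935*), and *Aldh18a1*, of proline synthesis (−1.17 ± 0.09). *Atf4*, the transcription factor at the centre of this response, had an FPKM of 156, 145 and 88.0 in the controls and 135, 119.5 and 130.5 in the KO-labelled libraries (0.02, adjusted p = 0.95), with overlapping groups and control replicate 3 the lowest. None of 18 chaperones of the endoplasmic reticulum was called by limma (4 had an adjusted p under 0.05), and *Calr*, calreticulin, the most abundant, differed by −0.21. Of 16 heat shock proteins, 1 was called, *Hspb1*, the small chaperone HSP27, at 0.340, 0 and 0 in the controls and 4.51, 3.38 and 3.18 in the KO-labelled libraries (2.08 ± 0.17).

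Of 20 p53 targets, all were tested and 5 were called higher, beside 3.25% of all tested genes, and none lower (median 0.41, beside 0.04 over all tested genes). *Pmaip1*, the proapoptotic protein NOXA, rose from 7.16, 6.46 and 6.05 in the controls to 30.4, 25.2 and 28.3 in the KO-labelled libraries (1.94 ± 0.10, adjusted p = 4.1e-05). *Plk3*, a stress-activated kinase, rose from 6.86, 7.28 and 4.70 in the controls to 28.7, 22.4 and 27.0 in the KO-labelled libraries (1.90 ± 0.17). *Phlda3*, an inhibitor of AKT, was at 7.93, 10.1 and 4.39 in the controls and 25.3, 23.7 and 29.0 in the KO-labelled libraries (1.73 ± 0.26), and *Trp53inp1*, a p53-induced nuclear protein, at 18.1, 17.1 and 25.5 in the controls and 49.0, 49.7 and 47.3 in the KO-labelled libraries (1.25 ± 0.15). The fifth was *Eda2r*, a receptor of ectodysplasin A2 (1.15 ± 0.11). The same list held genes that did not pass. *Cdkn1a*, the cell cycle inhibitor p21, was at 68.7, 63.2 and 54.0 in the controls and 105, 86.7 and 97.3 in the KO-labelled libraries, higher in each library labelled KO but under the size rule (0.63, adjusted p = 0.011). *Fas*, the death receptor, was at 5.31, 2.25 and 6.37 in the controls and 1.97, 1.46 and 1.55 in the KO-labelled libraries (−1.01, adjusted p = 0.054), and was called lower with the replicate number as a block, with TPM, with all 12 libraries in the fit, with limma-voom and without control replicate 2. Without control replicate 1 and replicate 2 labelled KO together, the 2 libraries rich in *Gm23935*, 3 of the 5 were called, with an adjusted p of 0.060 for *Phlda3* and 0.052 for *Trp53inp1*. Of 18 tested immediate early genes, 1 was called, *Dusp5*, a phosphatase of ERK (1.33 ± 0.13), and the list median was 0.59. *Gdf15*, a stress-induced cytokine, was at 1.75, 1.78 and 1.39 in the controls and 9.64, 9.06 and 8.92 in the KO-labelled libraries (1.95 ± 0.10), against 21.3, 18.5 and 23.0 in the controls and 11.99, 12.03 and 10.9 in the KO-labelled libraries with vehicle.

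Several genes of DNA replication rose in the KO-labelled libraries. Of 22 tested, 6 were called higher, beside 3.25% of all tested genes, and none lower, 19 had an adjusted p under 0.05, beside 22.4%, and the median was 0.88, beside 0.04 over all tested genes. *E2f1*, the transcription factor of S phase entry, was at 3.14, 4.21 and 2.14 in the controls and 8.72, 11.2 and 9.04 in the KO-labelled libraries (1.38 ± 0.20). *Ccne1*, cyclin E1, was at 3.29, 4.70 and 3.44 in the controls and 9.57, 11.8 and 11.1 in the KO-labelled libraries (1.30 ± 0.14), *Uhrf1*, which maintains DNA methylation, at 5.06, 6.49 and 4.66 in the controls and 12.7, 15.2 and 14.1 in the KO-labelled libraries (1.24 ± 0.13), and *Mcm5*, of the replicative helicase, at 8.03, 9.59 and 5.94 in the controls and 17.4, 21.2 and 19.3 in the KO-labelled libraries (1.21 ± 0.17). *Pcna*, the sliding clamp, did not reach the size rule, at 41.5, 44.0 and 45.6 in the controls and 80.8, 84.8 and 82.3 in the KO-labelled libraries (0.90, adjusted p = 3.5e-04). The number of calls in this list moved with the setting. It was 14 with a pseudocount of 0.1 and with limma-voom, 9 with TPM and without control replicate 3, and 2 without control replicate 1 and replicate 2 labelled KO together (adjusted p = 0.068 for *E2f1* and 0.063 for *Mcm5*). None of 22 mitosis genes was called (median 0.47, 11 with an adjusted p under 0.05), and *Mki67*, the proliferation marker Ki-67, was at 13.9, 15.3 and 17.3 in the controls and 20.5, 25.1 and 21.5 in the KO-labelled libraries (0.50, adjusted p = 0.023). With vehicle the medians were 0.62 for replication and 0.32 for mitosis, and no member of either list was called in the interaction.

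Stem cell genes gave no common direction. Of 21 stem cell and Wnt target genes, 14 were tested, 1 was called higher and 2 lower (median 0.09). *Prom1*, prominin, was lower (−1.15 ± 0.12) and so was *Cdca7*, a Myc target (−1.13 ± 0.10). *Ascl2*, a transcription factor of crypt stem cells, was called higher (1.12 ± 0.18) at low levels of 0.378, 0.261 and 0 in the controls and 1.24, 1.99 and 1.67 in the KO-labelled libraries, and without control replicate 3 its difference was 0.99. *Lgr5*, the receptor that marks crypt base stem cells, was under the filter at 0.717, 0.857 and 0.767 in the controls and 0.196, 0.364 and 0.272 in the KO-labelled libraries, and *Axin2*, a feedback target of Wnt, was at 4.84, 5.28 and 3.62 in the controls and 7.64, 8.55 and 9.73 in the KO-labelled libraries (0.80, adjusted p = 0.0090). Of 16 tested genes of differentiated absorptive cells, 2 were called higher and 3 lower. *Alpi*, intestinal alkaline phosphatase (−1.51 ± 0.22), and *Tmigd1*, an adhesion protein (−1.17 ± 0.20, but −0.93 without control replicate 3), were lower, and *Cd177*, a surface glycoprotein, was higher (1.59 ± 0.10). *Emp1*, a membrane protein of differentiated epithelium, fell from 275, 244 and 275 in the controls to 63.1, 46.9 and 55.7 in the KO-labelled libraries (−2.25 ± 0.13), and *Slc20a1*, a phosphate transporter, rose from 5.70, 5.77 and 5.43 in the controls to 28.4, 25.6 and 27.8 in the KO-labelled libraries (2.09 ± 0.08). *Krt20*, a keratin of mature surface cells, was at 318, 276 and 293 in the controls and 322, 246 and 289.9 in the KO-labelled libraries, with overlapping groups (−0.05).

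Enzymes that handle foreign compounds differed between the groups in both directions. Of 18 tested genes of the cytochrome P450 family and the aryl hydrocarbon receptor (AhR) axis, 2 were called higher and 5 lower, beside 3.25% and 2.99% of all tested genes. *Cyp1a1*, the classic target of the AhR, had an FPKM of 63.4, 71.6 and 65.1 in the controls and 198, 215 and 204 in the KO-labelled libraries (1.61 ± 0.09, adjusted p = 4.2e-05), while all 6 vehicle libraries were below 1. *Cyp1b1*, another AhR target, was lower, at 8.67, 8.79 and 10.2 in the controls and 0.176, 0.497 and 0.258 in the KO-labelled libraries (−2.97 ± 0.13). These AhR targets thus lay in opposite directions. The other increase was *Cyp2c68* (1.81 ± 0.22). *Cyp2c65* fell from 79.2, 59.2 and 89.0 in the controls to 6.88, 5.996 and 7.09 in the KO-labelled libraries (−3.31 ± 0.16) and *Cyp2c55*, an abundant colonic P450, from 820.2, 712 and 944 in the controls to 213, 159.6 and 185 in the KO-labelled libraries (−2.15 ± 0.15), both in a family of similar sequences among which fragments may be split. Of 33 tested genes of conjugation and aldehyde detoxification, 5 were called higher and 8 lower, beside 3.25% and 2.99% of all tested genes. Only 3 were called higher without control replicate 3, without replicate 1 labelled KO or with a mean FPKM of at least 5, which also left 5 called lower. With vehicle, 3 genes of this list were called higher and 9 lower, beside 2.58% and 2.87% of all tested genes. The carboxylesterases *Ces1g*, *Ces1f* and *Ces1d*, which hydrolyse esters and lipids, were all lower with hemin and were called lower with vehicle as well. *Ces1g* fell from 58.6, 56.2 and 68.5 in the controls to 1.05, 1.37 and 1.28 in the KO-labelled libraries (−4.79 ± 0.11, adjusted p = 1.6e-06), *Ces1f* from 47.3, 39.4 and 45.6 in the controls to 3.13, 1.73 and 2.40 in the KO-labelled libraries (−3.74 ± 0.16), and *Ces1d* from 7.22, 5.89 and 6.83 in the controls to 0.322, 0.215 and 0.441 in the KO-labelled libraries (−2.53 ± 0.12). *Ugt1a1*, the transferase that conjugates bilirubin, the end product of heme breakdown, was at 22.2, 19.2 and 27.9 in the controls and 1.03, 1.70 and 1.54 in the KO-labelled libraries (−3.31 ± 0.17); it shares its last exons with the other *Ugt1a* genes, so its value is uncertain. *Aldh1a1*, a retinaldehyde dehydrogenase, fell from 243, 233 and 306 in the controls to 57.3, 54.8 and 55.9 in the KO-labelled libraries (−2.19 ± 0.12). Among the increases, *Aldh1l1*, of folate metabolism, rose from 1.01, 1.18 and 0.739 in the controls to 17.5, 16.5 and 17.3 in the KO-labelled libraries (3.20 ± 0.11) and *Akr1b7*, an aldo-keto reductase, from 0.753, 0.792 and 0.334 in the controls to 8.73, 7.63 and 6.91 in the KO-labelled libraries (2.44 ± 0.15).

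A few genes of fatty acid oxidation and PPAR targets were called lower, and none of cholesterol synthesis was called. Of 21 tested genes of the former list, 4 were called, all lower, beside 2.99% of all tested genes, with a median of −0.03 over the list. With vehicle, 3 were called lower and none higher, with a median of −0.43. *Fabp2* is described above, and *Acaa2*, a thiolase of mitochondrial beta-oxidation, fell from 115, 123 and 118 in the controls to 54.4, 55.0 and 56.3 in the KO-labelled libraries (−1.09 ± 0.07). The call of *Ppara*, the nuclear receptor of this pathway (−1.09), was lost without control replicate 3, where its difference was −0.87, and without both libraries rich in *Gm23935* (adjusted p = 0.088). None of 23 cholesterol synthesis genes was called by limma (2 had an adjusted p under 0.05), with a median of 0.04. Of 10 tested genes of lipid absorption and the small intestine, 3 were called higher. *Slc10a2*, the bile acid transporter of the ileum, had an FPKM of 2.28, 2.18 and 3.46 in the controls and 16.4, 19.5 and 18.4 in the KO-labelled libraries (2.41 ± 0.15), *Apoa1*, an apolipoprotein of HDL and chylomicrons, of 0.284, 0.547 and 0 in the controls and 6.01, 3.82 and 4.79 in the KO-labelled libraries (2.21 ± 0.21), and *Slc15a1*, the peptide transporter, of 7.23, 6.72 and 9.76 in the controls and 23.6, 16.1 and 20.8 in the KO-labelled libraries (1.25 ± 0.18).

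All 30 genes of glycolysis and the hypoxia response were tested, 5 were called higher, beside 3.25% of all tested genes, and none lower, the median was 0.47 (−0.25 with vehicle), and the interaction was called positive in 9, beside 2.43% of all tested genes. *Egln3*, an oxygen-sensing prolyl hydroxylase that is itself induced by HIF, was at 24.2, 16.9 and 20.6 in the controls and 141, 114 and 129.9 in the KO-labelled libraries (2.59 ± 0.15). *Bnip3*, a receptor for the removal of mitochondria, was at 8.13, 5.15 and 8.92 in the controls and 29.2, 24.1 and 25.4 in the KO-labelled libraries (1.72 ± 0.19), and *Adm*, adrenomedullin, at 0.325, 0.261 and 0.370 in the controls and 2.14, 1.76 and 2.67 in the KO-labelled libraries (1.27 ± 0.14). *Pgk1*, a glycolytic kinase, rose from 317, 282 and 280.4 in the controls to 770.1, 619.8 and 725 in the KO-labelled libraries (1.26 ± 0.11), while *Pkm*, pyruvate kinase, passed the test but not the size rule (0.82, adjusted p = 0.013). Of 13 mitochondrially encoded genes, 1 was called, *mt-Nd3*, a subunit of complex I, which was lower (−1.23 ± 0.12), and *mt-Co1*, of complex IV, was at 12438, 10506 and 17526 in the controls and 10672, 12447 and 10431 in the KO-labelled libraries (−0.24, adjusted p = 0.47).

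**Figure D4:**
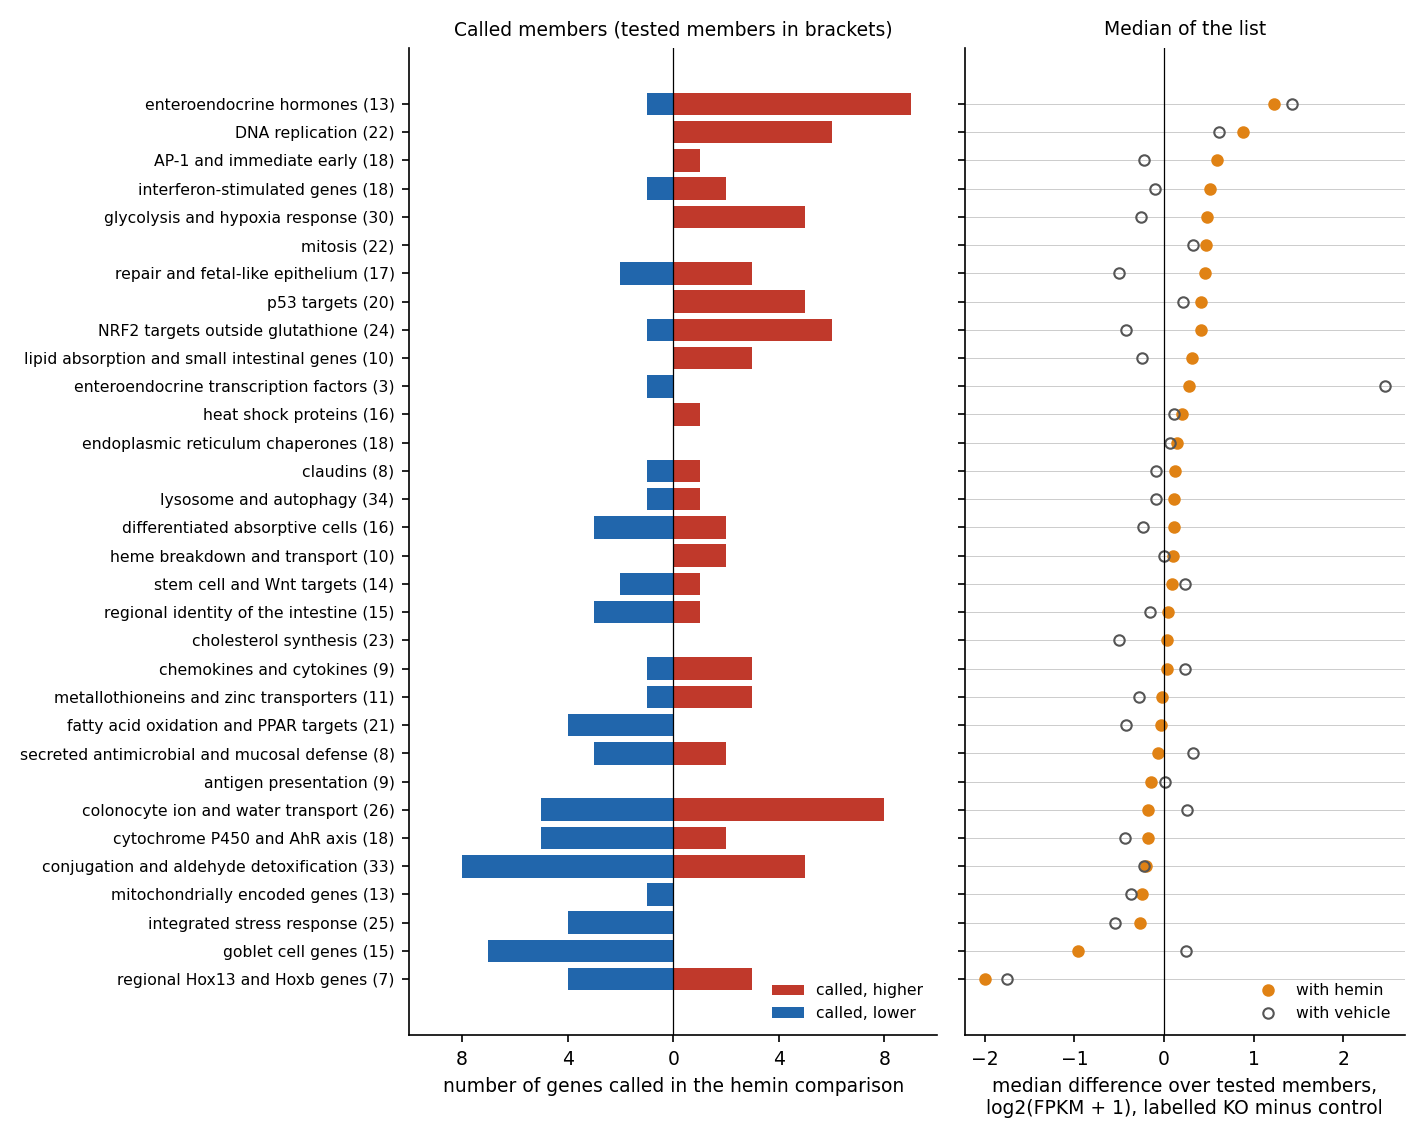
Left, the number of genes of each list called higher (red) or lower (blue) in the hemin KO-labelled libraries, with the number tested in brackets. Right, the median difference over the tested members with hemin (filled) and with vehicle (open), which for goblet cell genes lay at −0.96 and 0.24 and for NRF2 targets, with *Gsr* among them, at 0.41 and −0.42.

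Repair and mucosal defense genes changed in both directions. Of 17 tested genes of repair and fetal-like epithelium, 3 were called higher and 2 lower, and the interaction was called positive in 9, beside the same 2.43%. *Ptgs2*, cyclooxygenase-2, the inducible enzyme of prostaglandin synthesis, had an FPKM of 0.555, 0.739 and 0.411 in the controls and 13.8, 13.8 and 12.9 in the KO-labelled libraries (3.22 ± 0.11, adjusted p = 5.7e-06), and all 6 vehicle libraries were below 1. *Msln*, mesothelin, was at 20.8, 24.7 and 18.7 in the controls and 66.5, 54.8 and 67.1 in the KO-labelled libraries (1.51 ± 0.13), and *Anxa3*, an annexin, at 39.0, 39.2 and 46.8 in the controls and 99.3, 94.7 and 99.5 in the KO-labelled libraries (1.22 ± 0.10). *Ereg*, epiregulin, a ligand of the EGF receptor, was at 9.98, 10.2 and 14.6 in the controls and 0.0168, 0 and 0 in the KO-labelled libraries (−3.63 ± 0.15). *Areg*, amphiregulin, another such ligand, was at 72.4, 73.5 and 81.7 in the controls and 132, 107 and 123 in the KO-labelled libraries and was not called (0.66, adjusted p = 0.0052). *Il1rn*, the interleukin-1 receptor antagonist, fell from 128, 129 and 157 in the controls to 53.9, 50.3 and 50.3 in the KO-labelled libraries (−1.40 ± 0.10).

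Of 23 secreted defense genes, 8 were tested, 2 were called higher and 3 lower. *Saa1*, serum amyloid A1, rose from 2.90, 2.39 and 0.518 in the controls to 50.9, 25.0 and 40.8 in the KO-labelled libraries (3.82 ± 0.40). *Pigr*, the receptor that carries IgA across the epithelium, fell 4.04-fold, from 669, 609 and 696 in the controls to 163, 165 and 160.0 in the KO-labelled libraries (−2.01 ± 0.09, adjusted p = 1.7e-05), against 0.15 with vehicle. *Ang4*, an antimicrobial ribonuclease, fell from 19.7, 18.4 and 28.3 in the controls to 2.55, 2.88 and 3.24 in the KO-labelled libraries (−2.55 ± 0.17), and *Reg3b*, an antibacterial lectin, from 4.53, 5.41 and 4.35 in the controls to 0.122, 0 and 0 in the KO-labelled libraries (−2.47 ± 0.12). *Lypd8*, which keeps flagellated bacteria from the epithelium, was at 2331, 2007 and 2853 in the controls and 4741, 4205 and 4210.2 in the KO-labelled libraries (0.88, adjusted p = 0.0078). Of 9 tested chemokines and cytokines, 3 were called higher and 1 lower. *Cxcl5*, a neutrophil chemokine, was at 0.988, 0.726 and 0.781 in the controls and 13.8, 11.6 and 14.4 in the KO-labelled libraries (2.96 ± 0.11), and *Ccl20*, which attracts CCR6+ cells, was the decrease, at 6.72, 6.01 and 10.5 in the controls and 0.342, 0.359 and 0.392 in the KO-labelled libraries (−2.65 ± 0.19). *Ccl28*, a mucosal chemokine (1.25 ± 0.15), and *Mif*, a cytokine (1.10 ± 0.28), were the other increases. The call of *Mif* was lost without control replicate 3 (difference 0.75) or without any 1 of the KO-labelled libraries (adjusted p = 0.090 to 0.11), and both were lost without the libraries rich in *Gm23935* (adjusted p = 0.053 for *Ccl28* and 0.12 for *Mif*). Of 18 tested interferon-stimulated genes, 2 were called higher, *Rsad2*, viperin (2.04 ± 0.23), and *Isg15*, a ubiquitin-like modifier (1.83 ± 0.30), and 1 lower, *Ifitm2* (−1.77 ± 0.17); replicate 2 labelled KO was the lowest of its group for *Isg15* (16.6, 6.86 and 12.3), and without that library 6 were called higher, while with all 6 libraries the count was 4 by limma-voom, 5 on the TPM scale and 6 when the pseudocount was 0.1. None of 9 genes of antigen presentation was called by limma (3 had an adjusted p under 0.05), with *H2-K1*, a class I heavy chain, at −0.38.

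Genes that mark position along the intestine differed between the groups. Of 15 tested regional identity genes, 1 was called higher, *Foxa2*, an endodermal transcription factor, at 2.52, 2.39 and 1.48 in the controls and 11.0, 10.3 and 11.5 in the KO-labelled libraries (1.95 ± 0.15), and 3 lower. The decreases were *Osr2*, *Cdx2* and *Nr1h4*, the bile acid receptor FXR, at 35.02, 34.6 and 38.4 in the controls and 11.8, 13.3 and 12.9 in the KO-labelled libraries (−1.44 ± 0.09). *Cdx2* was at 225, 245 and 142 in the controls and 88.2, 70.8 and 87.8 in the KO-labelled libraries, and without control replicate 1 and replicate 2 labelled KO together it was not called (adjusted p = 0.11). *Hoxb13*, a Hox gene of the most distal hindgut, had no fragment in any of the 6 control libraries of the series and an FPKM of 134, 128 and 132 with hemin and 104, 115 and 111 with vehicle in the KO-labelled libraries. Of 7 tested genes of the Hox13 group and the Hoxb cluster, 3 were called higher and 4 lower with hemin, and as many with vehicle. These levels separate the colonoid lines without hemin as well, and the part of the origin of the lines in the differences above was not tested. Of 8 tested claudins, which seal the tight junction, *Cldn15*, a pore-forming member, fell from 33.1, 33.2 and 23.6 in the controls to 1.47, 1.58 and 1.31 in the KO-labelled libraries (−3.64 ± 0.15), and *Cldn8* was called higher (1.06) except without control replicate 1 (0.97). Of 34 genes of the lysosome and autophagy, 1 was called higher and 1 lower, the latter *Glb1*, beta-galactosidase (−1.01; −0.92 without control replicate 1 and −0.99 without replicate 1 labelled KO), a share of 5.88% beside 6.24% of all tested genes.

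The same genotypes were compared without hemin to set the differences above beside those of the lines themselves. With vehicle, 635 of the same 11650 genes were called (5.45%), 301 higher (2.58%) and 334 lower (2.87%). Of the 379 genes higher with hemin, 187 (49.3%) were also higher with vehicle, 187 were not called and 5 were lower. Of the 348 lower with hemin, 195 (56.0%) were also lower with vehicle, 150 were not called and 3 were higher. The 5, named after their values were seen, were *Hmox1*, *Slc7a11*, the cystine transporter, *Syt8*, a synaptotagmin, and *Gsta1* and *Gm3776*, close copies of a glutathione S-transferase gene between which fragments may be split. The 3 were *Neurog3*, *Reg4* and *Rep15*, a RAB15 effector. An interaction of genotype and hemin, which tests the change of the genotype difference itself, was called in 486 genes (4.17%), more positive with hemin in 283 (2.43%) and more negative in 203 (1.74%), although with TPM the split turned, to 220 more positive and 328 more negative. In the interaction, 116 of the 379 and 82 of the 348 were called in their own direction.

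**Figure D5:**
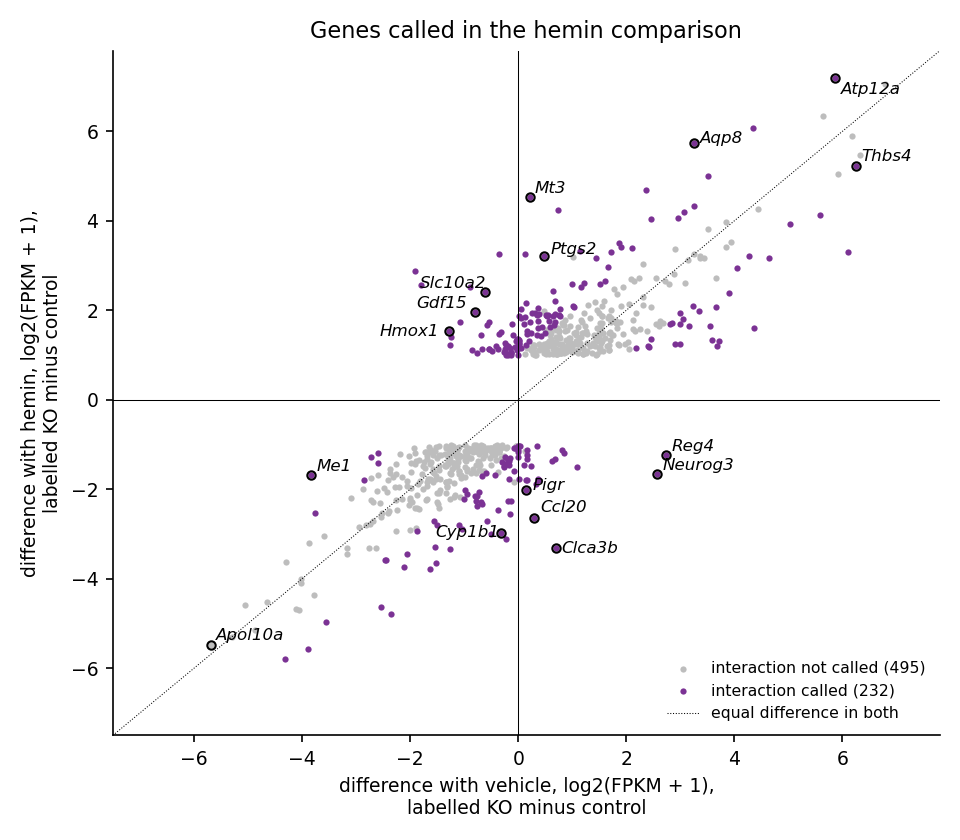
Each point is 1 of the 727 genes called with hemin, placed by its difference between KO-labelled libraries and controls with vehicle (horizontal) and with hemin (vertical), both in log2(FPKM + 1). The 232 purple points were also called in the interaction, and *Hmox1*, *Neurog3* and *Reg4* lie in the quadrants of opposite sign.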

How the data were processed

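Poly-A RNA of mouse colonoids was sequenced in 12 libraries, 3 for each of 4 groups, and the 6 hemin libraries are compared here. The submitters' processing notes name fastp, HISAT2 (2.0.5), featureCounts (1.5.0-p3) and mm10. The authors deposited FPKM values per gene, normalized to gene length and to the library's fragments, and these are the unit analysed. The values also carry a scaling between libraries that the sources used here do not describe. The labels name library chemistries for stranded and unstranded kits without saying which was used, so a gene and an antisense partner cannot be told apart.

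The filter kept a gene when 3 or more of the 6 hemin libraries had an FPKM of 1 or above, and log2(FPKM + 1) was fitted with limma (3.58.1 in R 4.3.3) with an intensity trend. This scale understates the change of low genes. P-values were adjusted over 11650 genes by the Benjamini-Hochberg method, and calls needed an adjusted p below 0.05 with a difference exceeding 1. The vehicle libraries were fitted alike, and the interaction in a model of all 12 libraries. The procedure was tested on simulated data. Fragments per gene were recovered from the FPKM values for depth and for the floor of 3 fragments, which covers counting error only.

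The members and the gene lists were chosen with earlier results of these data known, so no list carries a test. The genes named were *Hmox1*, the called genes with separated groups that ranked in the top 10 of either direction, without Hox genes and unnamed gene models, up to 4 called members and the most abundant uncalled member of each list, the metallothioneins and marker genes. Other genes were named after their values were seen. Some genes that the rule names are not reported here. Alternatives were the pseudocount, filter, scaling, replicate block, moderation, samples in the fit, leaving out each library, and limma-voom. Promoter windows came from RefSeq (GRCm38.p6), with 508 of the 727 called genes matched by symbol and none for *Hmox1*.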

Additional observations from a re-analysis of the deposited data

Results flagged for a closer look

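For 82 of the 156 tested genes named in the text, the difference between KO-labelled libraries and controls itself differed between hemin and vehicle, tested by the interaction term of the limma model (adjusted p under 0.05 and a size above 1 on the log2(FPKM + 1) scale). The value given for each is the difference with hemin minus that with vehicle, and it was positive in 43 and negative in 39. Of all 11650 tested genes, 4.17% were called in the same test. Negative values were found for members of the goblet cell list and other mucosal genes in *Clca3b* (−4.03), *Reg4* (−3.98), *Rep15* (−2.59), *Muc2* (−2.51), *Best2* (−2.48), *Ang4* (−2.40), *Pigr* (−2.15), *Agr2* (−2.11), *Reg3b* (−2.08), *Tff3* (−1.93), *Fcgbp* (−1.61), *Capn9* (−1.50), *Fer1l6* (−1.05) and *Atoh1* (−1.03), while positive ones were found for the secreted protease inhibitors *Slpi* (1.73), *Spink4* (1.30), *Spink1* (1.13) and *Wfdc2* (1.10), of which *Spink4* is also a goblet cell product. Enteroendocrine and neuronal genes were negative as well, in *Neurog3* (−4.24), *Sst* (−1.99), *Insm1* (−1.79), *Tubb3* (−1.72), *Gcg* (−1.66) and *Insl5* (−1.47). Among transporters and transport peptides, negative values were found in *Guca2a* (−2.08), *Slc15a1* (−1.65), *Slc12a2* (−1.37) and *Cftr* (−1.28), and positive ones in *Slc10a2* (3.03), *Aqp8* (2.48), *Sgk1* (2.17), *Atp12a* (1.33), *Slc20a1* (1.08) and *Scnn1a* (1.08).

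Genes of heme, metal and electrophile handling gave positive values, in *Gm3776* (4.78), *Gsta1* (4.37), *Mt3* (4.32), *Hmox1* (2.81), *Slc7a11* (2.65), *Mt4* (2.33), *Me1* (2.14), *Srxn1* (1.81), *Akr1b7* (1.79), *Nqo1* (1.65), *Cbr3* (1.63), *Abcc2* (1.58), *Abcc4* (1.20) and *Ephx1* (1.10). The stress, p53 and early response genes *Gdf15* (2.75), *Pmaip1* (1.62), *Plk3* (1.55), *Dusp5* (1.32), *Trp53inp1* (1.23) and *Hspb1* (1.05) were positive, and the amino acid synthesis genes *Phgdh* (−1.23) and *Aldh18a1* (−1.16) negative, while 5 other members of the integrated stress response list, not named in the text, were positive. Genes of glycolysis and hypoxia were positive in *Egln3* (1.60), *Adm* (1.51), *Pgk1* (1.25) and *Pkm* (1.20). Repair, defense and cytokine genes were positive in *Ptgs2* (2.73), *Rsad2* (1.99), *Areg* (1.92), *Msln* (1.82), *Isg15* (1.77), *Cxcl5* (1.29) and *Anxa3* (1.22), and negative in *Ccl20* (−2.94) and *Ifitm2* (−2.15). Esterases, P450 enzymes and a glycosyltransferase were negative in *Cyp1b1* (−2.64), *Ces1g* (−2.44), *Ces1f* (−1.62), *B4galnt2* (−1.39), *Cyp2c55* (−1.38), *Cyp2c68* (−1.23) and *Ces1e* (−1.06). The remaining genes were positive in *Syt8* (2.81) and *Fhl1* (1.48) and negative in *Cldn15* (−2.13), *Cdca7* (−1.12), *Foxa2* (−1.05) and *Thbs4* (−1.03).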

How the results depend on the processing

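The number of genes called with hemin was 727 and lay between 713 and 776 when any 1 library was left out (372 to 400 higher and 340 to 376 lower). Settings that moved it or its split by more than 1.5 times were a filter on a mean FPKM of at least 5 (388 called, 228 higher and 160 lower, from fewer tested genes), limma-voom on the fragments recovered from the FPKM values, of which 100% came out whole (1099 called, 577 higher), and the adjusted p alone (2612, 1509 and 1103). Just under that limit, 1044 genes were called with hemin under a pseudocount of 0.1 and 1055 under TPM. With vehicle, TPM gave 474 higher genes against 301. In the interaction, 333 genes were more negative with a pseudocount of 0.1 and 328 with TPM, against 203, and the share of more positive calls went from 58.2% to 40.1% under TPM, which moved the median of all genes to 0.15 with vehicle and to −0.10 in the interaction. Without both libraries rich in *Gm23935*, an alternative chosen after seeing the data, 669 genes were called (353 higher and 316 lower), and leaving that gene out of the TPM sum, chosen likewise, gave 943.

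Samples that shared a replicate number did not deviate together (correlations 0.07, −0.37 and −0.16 for the numbers 1 to 3), so the numbers were not taken to pair the samples. With the replicate block, 728 genes were called with hemin, 637 with vehicle and 473 in the interaction. The 2795 values under the alternatives came from 215 genes, which include some the rule names and the text does not describe. Of these values, 2734 kept their side of the threshold, 42 lost the call and 19 gained it. None changed direction where the gene was called with or without the alternative, and changes of direction elsewhere were not counted. The cause of these shifts was not tested. Lists of 1 or 2 calls in a direction also moved, with 2 called lower among the enteroendocrine hormones under a pseudocount of 0.1, TPM and limma-voom, and 2 called higher in each of the heat shock, immediate early, and stem cell and Wnt lists under the same 3. A filter on a mean FPKM of at least 5 left 5 called higher for ion and water transport against 8. Of 429 list medians, 69 moved by more than the spread between replicates and 16 changed sign. In data simulated at these depths with 3 libraries per group, 93.9% of 197 genes changed 4-fold were recovered, and 10 unchanged genes were called. The simulated spread was set alike for all genes, and no library was made to stand apart, so this share may not hold for these data. Smaller changes were not simulated.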

Other observations

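Enzymes that build the sugar chains of mucins and glycolipids, which no list above holds, moved in both directions. They were grouped by symbol after their values were seen, so their counts carry no test. Of 50 tested glycosyltransferases and carbohydrate sulfotransferases, 9 were called higher and 7 lower (32.0%, beside 6.24% of all tested genes), with a median of 0.18. *B4galnt2*, which makes the Sda blood group antigen of the colon, had an FPKM of 134, 98.9 and 126 in the hemin controls and 11.5, 8.54 and 9.96 in the KO-labelled libraries (−3.45 ± 0.15). *Gcnt3*, which makes branched mucin cores, fell from 51.7, 52.97 and 56.5 in the controls to 9.53, 7.89 and 9.72 in the KO-labelled libraries (−2.45 ± 0.10). *Fut4*, a fucosyltransferase of Lewis antigens, was at 0.172, 0.104 and 0.0840 in the controls and 12.6, 11.2 and 11.9 in the KO-labelled libraries (3.52 ± 0.09), and *St3gal6*, a sialyltransferase, at 0.398, 0.480 and 0.721 in the controls and 22.6, 24.2 and 22.4 in the KO-labelled libraries (3.98 ± 0.11). The same 4 genes differed with vehicle by −2.07, −1.84, 3.94 and 3.85.

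Protease inhibitors, chosen the same way, gave 4 called higher, beside 3.25% of all tested genes, and none lower of 9 tested. Beside *Slpi*, these were *Wfdc2* at 25.0, 25.3 and 14.3 in the controls and 389, 317 and 389.6 in the KO-labelled libraries (4.06 ± 0.22), *Spink1* at 2.08, 1.20 and 2.84 in the controls and 52.2, 50.2 and 58.8 in the KO-labelled libraries (4.20 ± 0.20) and *Spink4*, whose values are given above.

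Of 385 windows of 5 Mb with at least 10 tested genes, the one with the highest share of called genes was chromosome 8 from 90000001 to 95000000 (mm10), with 10 of 32 (31.3%). It holds 4 neighbouring carboxylesterase genes, *Ces1d*, *Ces1e*, *Ces1f* and *Ces1g*, all lower, and within 1 Mb of them *Mt4*, *Mt3* and *Mt1*, all higher. The window was chosen for its calls and has no test.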
